A study of Mus musculus with 2 samples.

Results

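The clustered histone genes of the mouse, those whose symbols begin with Hist1h, Hist2h, Hist3h or Hist4h, were examined in nascent RNA of bone marrow-derived macrophages (BMDMs) with and without interleukin-4 (IL-4). Members were all genes named in this way in the annotated transcripts of either library. There were 32 of 11054 genes named in either library, 27 of 9827 in the control library and 30 of 10106 in the IL-4 library. Of the 32, 25 were named in both libraries, 2 in control alone and 5 after IL-4 alone. Of all 11054 genes, 8879 had a value in both libraries, a similar share, and nothing is read from these counts. The GENCODE M21 annotation holds 70 genes with such symbols, so that most H2A, H2B and H3 genes had no transcript carrying their name, while 11 of the 13 H4 genes had one in each library.

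BMDMs were grown from bone marrow of wild-type C57BL/6 mice aged 8 to 12 weeks, for 6 days in L929 cell supernatant, which supplies the macrophage growth factor M-CSF. Control cells received no IL-4, and the other cells received 20 ng/ml IL-4, a cytokine that drives alternative macrophage polarization, for 1 h. Global run-on sequencing (GRO-seq) lets RNA polymerases that are engaged in isolated nuclei extend their transcripts with a bromine-labelled nucleotide, so that RNA in the course of being made is captured. Run-on reactions were made in duplicate and pooled into 1 library per condition, so no difference has a replicate check and no p-value is given. A difference between the libraries therefore cannot be told apart from a difference between 2 library preparations.

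Clustered histone genes are short, have no introns in their main transcripts, and supply most of the histone protein that packages new DNA in S phase. H2A, H2B, H3 and H4 form the core of the nucleosome, and H1 binds the DNA that links nucleosomes. Their mRNAs usually end in a conserved stem-loop in place of a poly(A) tail, bound by the stem-loop binding protein Slbp, and their expression is coupled to DNA replication through the coactivator Npat. Replacement histones such as H3f3b, in contrast, are made throughout the cell cycle from genes outside these clusters.

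The stem-loops are shown because their place, 3′ of the stop codon, is the landmark against which transcript ends are measured further on. The motif, GGNNCTTNT joined directly to NAGNNCC and searched on the given strand, occurred in a GENCODE transcript of 46 of 67 coding members of the annotation (68.7%), against 201 of all 55341 annotated genes (0.363%). By type it was present in 4 of 6 H1, 11 of 18 H2A, 10 of 18 H2B, 9 of 12 H3 and 12 of 13 H4 genes. Models that stop at the stop codon cannot hold it. The 5 forms carried by more than 1 gene follow, with the paired arms in capitals.
Most frequent form, 26 genes of H1, H2A, H2B and H3: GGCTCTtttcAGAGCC
Second form of these types, 6 genes: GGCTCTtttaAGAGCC
Most frequent form of H4, 7 genes: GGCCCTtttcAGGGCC
H4 form with another loop, 2 genes: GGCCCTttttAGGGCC
H4 form with another stem, 2 genes: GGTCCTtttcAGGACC
No H4 gene carried either of the first 2 forms, and no H1, H2A, H2B or H3 gene carried one of the other 3.

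Promoter sequence was taken from RefSeq (GRCm38.p6, the build of the deposited coordinates) and matched 28 of the 32 member names by gene identifier. The windows reach from 250 bases before to 50 bases after the annotated start, and motifs were searched on both strands. The sequence TATAAA was in 35 of 62 windows of clustered histone genes (56.5%) and in 13.6% of all 32851 promoter windows. CCAAT was in 53 of the 62 (85.5%) against 37.4% of all windows. It was in every H1, H2A, H2B and H3 window and in 3 of 12 H4 windows. The octamer ATTTGCAT, bound by POU factors such as Pou2f1, was found in 7 of 18 H2A and 6 of 16 H2B windows, in none of the other types, and in 1.74% of all windows. GGTCCG, the core of an element of H4 promoters that the H4 gene regulator Hinfp recognises, was in 11 of 12 H4 windows and in 1 H2B and 1 H3 window, against 8.25% of all windows. It was added to the search after the H4 promoters had been read.

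The 120 bases before the annotated start are given for the 2 highest-scoring H4 genes and for a pair of genes that were at least 2-fold higher after IL-4, with the matches in capitals. Of the other genes at least 2-fold higher, Hist1h4h had no match in these 120 bases, and Hist1h3f had no RefSeq promoter.
Hist1h4c, chr13:23698459-23698578, minus strand: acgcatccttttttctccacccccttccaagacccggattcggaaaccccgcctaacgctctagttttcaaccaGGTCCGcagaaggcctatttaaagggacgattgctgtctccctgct
Hist1h4d, chr13:23581448-23581567, plus strand: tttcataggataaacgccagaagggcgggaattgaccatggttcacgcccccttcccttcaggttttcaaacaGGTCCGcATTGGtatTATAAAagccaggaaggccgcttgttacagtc
Hist1h4k, chr13:21750554-21750673, minus strand: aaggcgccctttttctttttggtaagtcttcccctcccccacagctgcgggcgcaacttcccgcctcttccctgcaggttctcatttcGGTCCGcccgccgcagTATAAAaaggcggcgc
Hist2h2ac, chr3:96220881-96221000, minus strand: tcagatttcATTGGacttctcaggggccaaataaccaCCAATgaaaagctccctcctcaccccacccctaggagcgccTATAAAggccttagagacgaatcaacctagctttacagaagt
GGTCCG lies 46 bases before the start of Hist1h4c, 47 before that of Hist1h4d and 32 before that of Hist1h4k, and Hist2h2ac holds CCAAT on either strand (ATTGG is the reverse match).

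The measurement was a score per called transcript, printed to 1 decimal, whose scaling to library size or transcript length is not stated in the sources used here. A gene's value was the highest score among transcripts carrying its name. Among 8879 genes valued in both libraries, the printed score was lower after IL-4 in 5285, higher in 1951 and equal in 1643, with a median log2 ratio of -0.38. Ratios of members were therefore centred on this median. A gene was counted as higher or lower at a centred ratio of at least 2-fold. Rounding allows each score to lie up to 0.05 to either side, and the span of ratios this permits is given as the rounding range, which is not an experimental error.

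Against this general shift, 18 of 25 clustered histone genes kept or gained printed score after IL-4. All genes differ from members in the class and length of their transcripts, given below, and start-site calls of other genes were not set apart. The printed score was higher in 15 of the 25 members with both values (60%, against 22% of all genes), lower in 7 and equal in 3. Their median centred log2 ratio was 0.60, with quartiles of 0.16 and 0.79 and an SD over genes of 0.59, while all genes had quartiles of -0.51 and 0.38 and an SD of 0.78. A centred ratio above 0 was found in 20 of 25 members (80%, against 49.8% of all genes), and the whole rounding range was above 0 in 16 (64%, against 31.3%) and below 0 in 1. The median of the members stayed above 0 under all 7 other settings tried, and was 0.22 with no centring and 0.13 with centring on the total score.

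At least 2-fold higher values were found in 4 of 25 members (16%), where 8.06% of all genes were called, and in 0 members for lower values, where 8.62% of all genes were called. The 4 were Hist1h3f, Hist2h2ac, Hist1h4k and Hist1h4h, and in all 4 the whole rounding range lay at 2-fold or above. These counts depend on the centring. Without it 2 members were higher and 2 lower by 2-fold, beside 5.98% and 24.3% of all genes. They also depend on the gene value used. With summed scores and with scores weighted by length 3 members each were higher (12%), below the 13.6% and 17.2% of all genes. Lower values were then found in 1 and 3 members, beside 13.7% and 16.9% of all genes. The 5330 genes with a control value from 0.3 to 0.9 had a median centred ratio of -0.04 and the 16 members in that range one of 0.67, with no test of the difference.

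**Figure D1:**
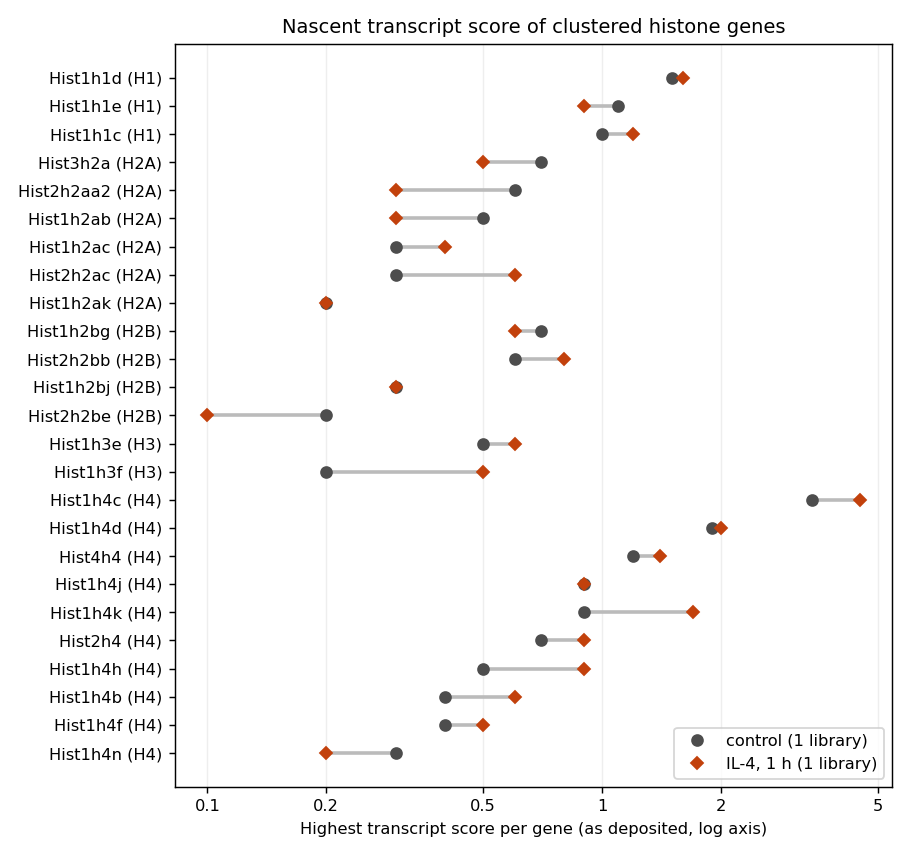
Highest transcript score per gene on a log axis for the 25 clustered histone genes with a value in both libraries, with circles for control and diamonds for IL-4 at 1 h, and 1 library each. Hist1h4c has the highest score in both libraries (3.4 and 4.5), and diamonds lie to the right of circles in 15 genes.

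The 2 highest scores in each library belonged to H4 genes. Among genes with both values, the median score was higher for the 3 H1 genes (1.1 and 1.2) than for the 10 H4 genes (0.8 and 0.9). These medians leave out genes named in 1 library, such as Hist1h1a (0.4) and Hist1h1b (0.2) after IL-4. Hist1h4c (ENSMUSG00000060678.5, chromosome 13, 23697635 to 23698454, minus strand) scored 3.4 in control and 4.5 after IL-4. No member scored higher in either library. Its centred log2 ratio was 0.78 with a rounding range of 0.75 to 0.82, below 2-fold. Hist1h4d, the next, scored 1.9 and 2.0 (centred 0.45), so that its printed score was nearly level while that of most genes was lower.

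A pair of H4 genes passed 2-fold. Hist1h4k (ENSMUSG00000064288.4, chromosome 13, 21750194 to 21750505, minus strand) had a score of 0.9 without and 1.7 with IL-4. Its centred ratio was 1.30 with a rounding range of 1.17 to 1.42, or 2.46-fold. Hist1h4h (ENSMUSG00000060981.7, chromosome 13, 23531050 to 23531519, plus strand) scored 0.5 and 0.9, a centred ratio of 1.23 with a range of 1.01 to 1.46, or 2.34-fold. The control value of Hist1h4h belonged to a transcript beyond the gene, and the control transcript on the gene itself scored 0.4, which gave a centred ratio of 1.53. With summed scores the ratio was 0.29 and with scores weighted by length -0.96, so the direction for Hist1h4h turned under the weighting by length. Both genes fell short of 2-fold without centring (0.92 for Hist1h4k and 0.85 for Hist1h4h) and with centring on the total score (0.82 and 0.76), and Hist1h4k also with weighting by length (0.59).

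The other H4 genes, chosen for completeness after their values were seen, ran the same way with 1 exception. Hist4h4, alone in its cluster on chromosome 6, scored 1.2 and 1.4, Hist2h4 0.7 and 0.9, Hist1h4b 0.4 and 0.6, Hist1h4f 0.4 and 0.5, and Hist1h4j 0.9 in both, with centred ratios from 0.38 to 0.96. Hist1h4n scored 0.3 and 0.2 (centred -0.21, range -0.84 to 0.38), but the transcript with that name lies at bases 422 to 630 from the start codon of the gene GENCODE calls Hist1h4m, past its coding sequence. In all, 9 of 10 H4 genes had a centred ratio above 0, 8 had a higher printed score, and the median ratio was 0.72. It was 0.34 with no centring and 0.25 with centring on the total score.

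H1 genes, which encode linker histones, had centred ratios from 0.09 to 0.64. Hist1h1d scored 1.5 in control and 1.6 after IL-4 (centred 0.47), Hist1h1e 1.1 and 0.9 (0.09), and Hist1h1c 1.0 and 1.2 (0.64). The median of these 3 was 0.47 and none reached 2-fold. Summing the scores of a gene's transcripts turned Hist1h1c to -0.26, and weighting them by length to -1.68, more than 2-fold lower. In control Hist1h1c had a further transcript of 537 bp with a score of 0.9, starting 840 bp from its start codon. It had no counterpart after IL-4. With weighting by length Hist1h1d was at 1.01 and Hist1h1e at 0.41.

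H2A genes did not share a direction. Hist2h2ac (ENSMUSG00000068855.3, chromosome 3, 96220361 to 96220880, minus strand) had a score of 0.3 without and 0.6 with IL-4. Its centred ratio was 1.38 with a rounding range of 1.03 to 1.76, or 2.6-fold, and 0.91, short of 2-fold, with centring on the total score. Hist3h2a on chromosome 11 scored 0.7 and 0.5 (centred -0.11), and Hist2h2aa2 0.6 and 0.3 (-0.62, range -1.0 to -0.27). Hist2h2aa2 was the only member with a whole rounding range below 0, and none of its named transcripts overlapped an annotated histone gene. The other H2A genes, given after their values were seen, were Hist1h2ab (0.5 and 0.3, centred -0.36), Hist1h2ac (0.3 and 0.4, 0.79) and Hist1h2ak (0.2 in both, 0.38). With scores weighted by length Hist1h2ak turned to -1.12, more than 2-fold lower, while the median of the type was 0.31. The median of the 6 H2A genes was 0.14, with 3 above 0 and 3 below. It turned to -0.24 without centring and to -0.34 with centring on the total score. With only genes kept that scored at least 0.3 in at least 1 library, it was -0.07.

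H2B genes had mixed and mostly small ratios. Hist1h2bg scored 0.7 in control and 0.6 after IL-4 (centred 0.16), and Hist2h2bb 0.6 and 0.8 (0.79, range 0.58 to 1.01). Hist1h2bj (0.3 in both, centred 0.38) and Hist2h2be (0.2 and 0.1, -0.62, range -1.94 to 0.38) complete this type and were added after their values were seen. Hist2h2be was more than 2-fold lower with summed scores (-1.3) and with scores weighted by length (-2.02). Hist2h2bb was at 0.7 and 0.5 under these settings. The median of the 4 H2B genes was 0.27, which turned to -0.11 without centring, -0.20 with centring on the total score and -0.11 with scores weighted by length. The name Hist1h2be was present in control alone, with a score of 0.8, but that transcript covered bases 649 to 1083 from the start codon of Hist1h1e, on its strand. After IL-4 a single transcript named Hist1h1e covered bases -56 to 1156, so the name was lost while the place stayed covered. Conversely, 2 transcripts after IL-4 that bore the name Hist1h4d (0.3 and 0.1) lay on the strand of the annotated Hist1h2be.

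Both H3 genes with values were higher after IL-4. Hist1h3f (ENSMUSG00000100210.2, chromosome 13, 23544052 to 23545312, plus strand) had a score of 0.2 without and 0.5 with IL-4. Its centred ratio, 1.70 or 3.25-fold, was the highest of the 25 members, with the wide rounding range of 1.23 to 2.25 that low scores give. Hist1h3e scored 0.5 and 0.6 (centred 0.64). Of members named in 1 library, Hist1h1a (0.4), Hist1h4a (0.4) and Hist1h3a (0.3) appeared after IL-4 alone and Hist1h4i (0.3) in control alone. The Hist1h4i transcript lay past the coding sequence, at bases 424 to 684 from the start codon. Hist1h1b and Hist2h2ab, named after their values were seen, each scored 0.2 after IL-4 alone. With depth unknown, absence of a called transcript cannot be told apart from a score under the caller's limit.

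**Figure D2:**
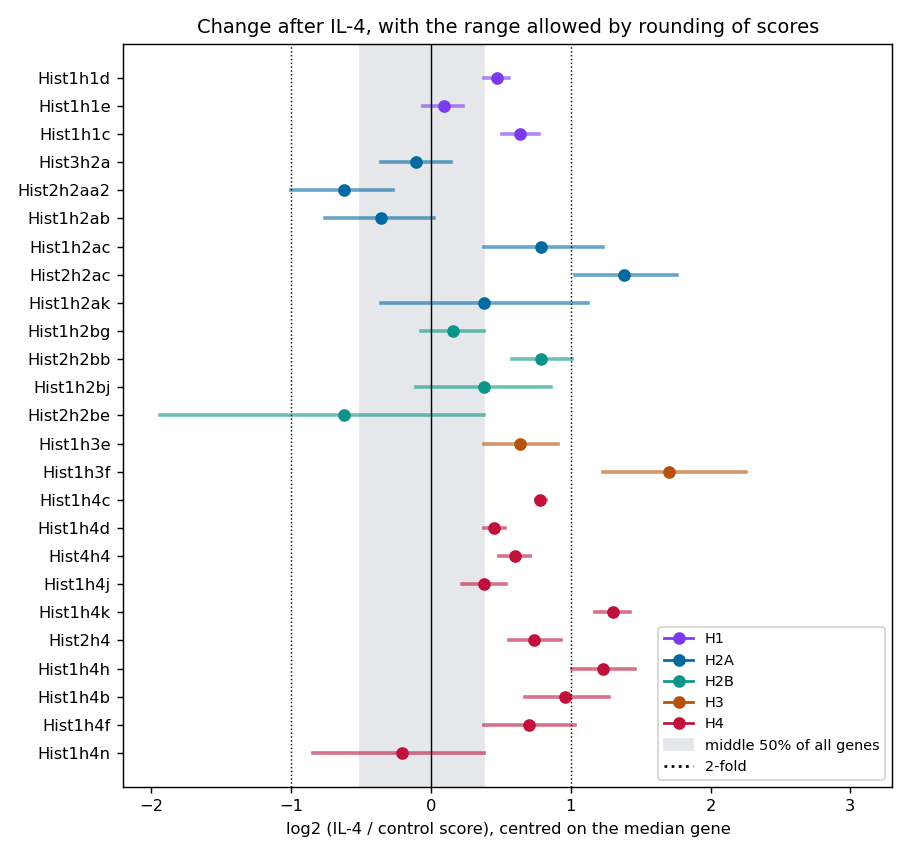
Centred log2 ratio of IL-4 over control for the same 25 genes, coloured by histone type, with horizontal bars for the range that rounding of the scores allows, a grey band for the interquartile range of all genes and dotted lines at 2-fold. Hist1h3f, Hist2h2ac, Hist1h4k and Hist1h4h lie beyond the right dotted line, and 9 of 10 H4 genes lie right of 0.

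By cluster, the Hist1 genes on chromosome 13 had a median centred ratio of 0.56 over 18 genes, with 16 above 0 and 3 at 2-fold or more. In the Hist2 cluster on chromosome 3 the median was 0.74 over 5 genes, with 3 above 0 and 1 at 2-fold or more. Beside these counts, 49.8% of all genes were above 0 and 8.06% were at least 2-fold higher. The single genes of Hist3 and Hist4 are those given above.

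Most member transcripts lay near the starts of genes. The promoter class was given to 17 of 31 member transcripts in control (54.8%) and 20 of 39 after IL-4 (51.3%), against 10.8% and 10.2% of all transcripts. Of all transcripts, 64.3% and 65.2% were intronic, a class that genes without introns cannot take, so these shares are not comparable and nothing is read from their difference. Of the member transcripts, 27 in each library lay on the strand of the gene they were named for, and 3 in control and 8 after IL-4 overlapped no histone gene. Their median length was 235 bp without and 212 bp with IL-4, while that of all transcripts was 227 and 312 bp.

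At the coding sequences themselves, transcripts began close to the start codon. The 5′ end was between 100 bp before and 30 bp after the start codon for 23 of 29 transcripts in control and 27 of 31 after IL-4, at medians of -7 and -26 bp. The 3′ end of 18 of these 23 and 19 of these 27 lay inside the coding sequence. Hist1h4c was called only from 2 to 119 bp in control and from 0 to 124 bp after IL-4, and Hist1h4k from 7 to 101 and from 7 to 90 bp. The scores of these genes therefore describe the first part of the gene. Whether the polymerases or the placing of reads ended there was not tested.

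Some transcripts ran on past the coding sequence. Among transcripts beginning near the start codon of a gene with a stem-loop, 3 of 19 in control and 7 of 22 after IL-4 ended beyond the stem-loop. In control, Hist1h4f and Hist4h4 ended past the coding sequence but 22 and 43 bp short of the end of the stem-loop, and after IL-4 both passed it. Like these, named after their values were seen, the call from the start codon of Hist2h4 ran to 645 bp without and 1125 bp with IL-4. That of Hist1h1e ran to 622 and 1156 bp, Hist3h2a to 215 and 584 bp, and Hist4h4 to 338 and 548 bp. At Hist2h4 and Hist1h1e control coverage did not stop there, since the IL-4 call overlapped 2 control calls. The second control call at Hist1h1e spanned 649 to 1083 bp. That at Hist2h4 ended at base 96262108 of chromosome 3, farther than the IL-4 call, which ended at 96262179. In the opposite direction, Hist1h2ak ended at 374 bp in control and at 179 bp after IL-4. Over 22 genes with a start-codon transcript in both libraries the 3′ end of that transcript was farther after IL-4 in 15 and nearer in 5. The median difference was 10 bp, and calls farther along the gene were not counted. This was close to the rest of the data. Among transcripts of any gene matched by 5′ ends within 100 bp, 67.1% of 21356 ended farther after IL-4, at a median of 37 bp, and among member transcripts matched in the same way 18 of 25 did (72%), at a median of 12 bp.

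**Figure D3:**
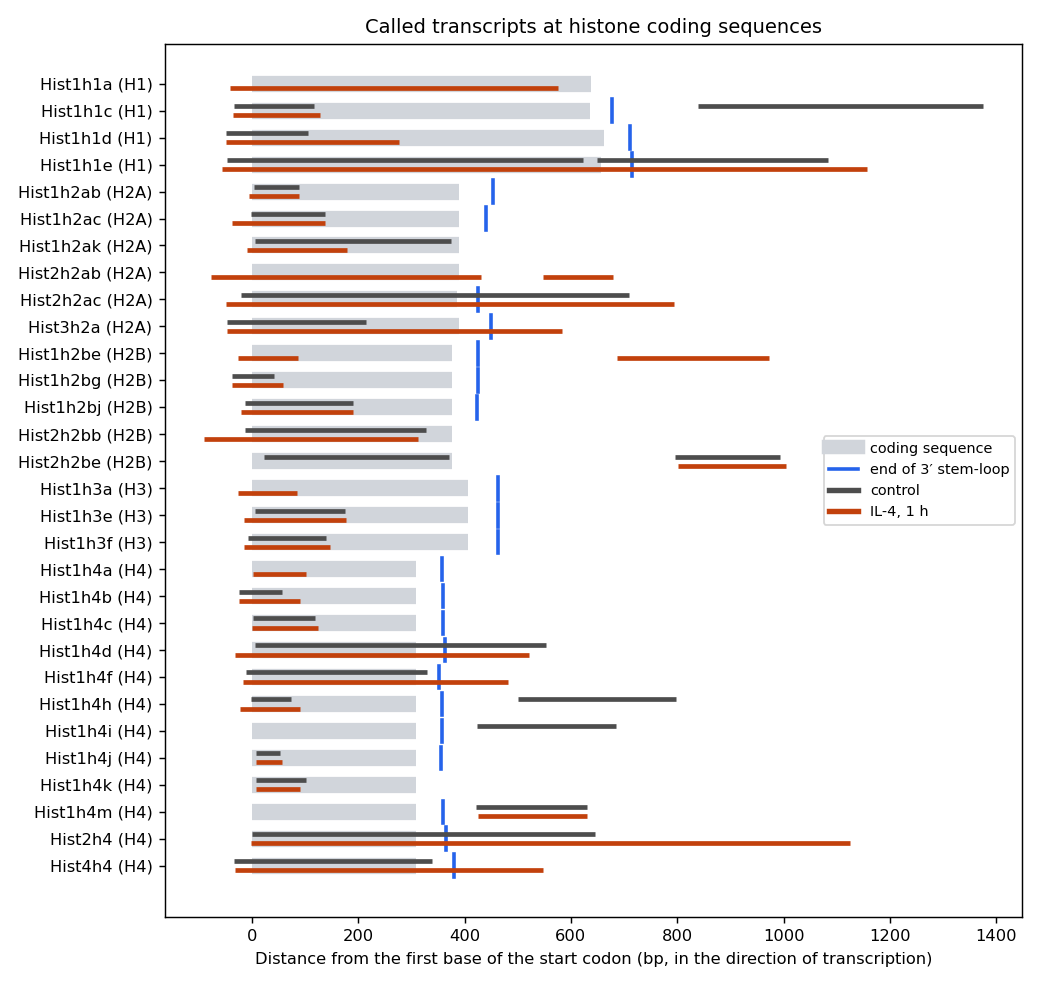
Called transcripts at histone coding sequences in bp from the first base of the start codon, dark for control and orange for IL-4 at 1 h, over a grey bar for the coding sequence and a blue mark for the end of the stem-loop where the GENCODE model holds one. Most calls begin at the start codon and end inside the coding sequence. The IL-4 calls of Hist2h4 and Hist1h1e extend to 1125 and 1156 bp, and each overlaps 2 control calls. The second control call at Hist2h4 is not drawn.

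Most H2A, H2B, H3 and H4 genes shared much of their coding sequence with another annotated place, and H1 genes less, which bears on where reads can be placed. Each coding sequence was divided into overlapping windows of 36 bases, and a window was called shared if it also occurred at another annotated place in the GENCODE transcripts, on either strand. The median share per gene was 14.3% for H1, 86.9% for H2A, 83.9% for H2B, 89.7% for H3 and 74.5% for H4. Single genes ranged from 0% to 100%, and Hist2h2bb (3.79%) and Hist1h2aa (9.09%), named after their values were seen, were low for their types. The read length and the treatment of reads with several placements are not given in the sources used here, so 36 bases is an illustration.

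Calls covered less of the shared than of the unshared sequence. Of the 13 coding genes whose windows were all shared, 0 had a call in the coding sequence in either library, and of the 54 others 28 did. In H4 genes with a call, 29.3% of windows inside the called part and 84.3% outside it were shared in control, and 27.9% and 90.3% after IL-4. Single genes differed in this. Hist1h4c shared 60.2% of its coding windows but 0% of those inside its call, in both libraries, and 86.4% of those outside it in control. Hist1h4d went the other way in control, with 57.1% shared inside its call and 0% outside, as did Hist1h1e with 31.1% and 0%. The 0% values rest on few windows, since only 6 of 274 coding windows of Hist1h4d and 34 of 622 of Hist1h1e lay outside. Hist1h1d also went the other way after IL-4, with 47.1% and 23.6%. Hist4h4 shared 0% and Hist2h4 10.9% of all their coding windows (both named after their values were seen), and the calls of both ran through the coding sequence. H1 genes are an exception to the order by type, since Hist1h1b and Hist1h1t shared at most 2.05% of windows and had no call in the coding sequence. Absence of a called transcript at most H2A, H2B and H3 genes cannot be told apart from reads that had no single place, and the part of shared sequence in it was not tested.

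**Figure D4:**
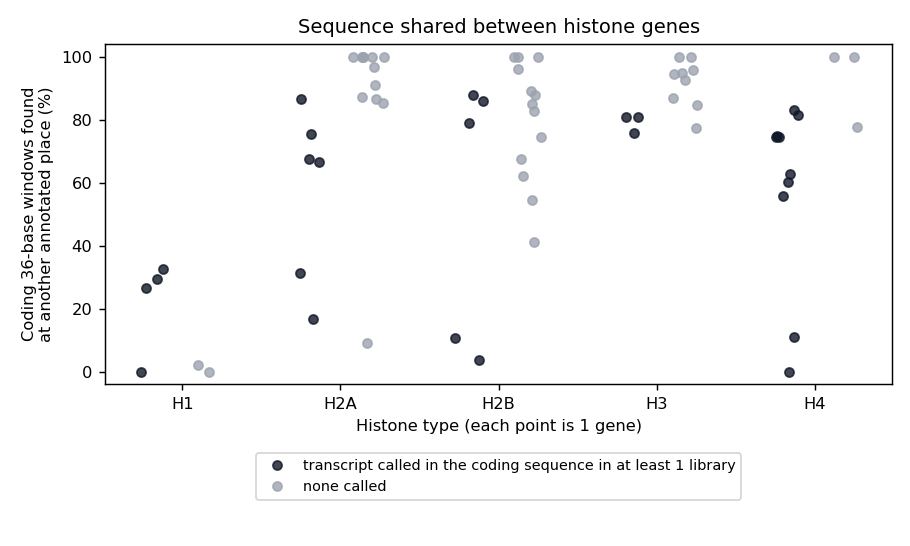
Percentage of 36-base coding windows of each of the 67 coding histone genes that occur at another annotated place, by histone type, with black points for genes with a call in the coding sequence in at least 1 library and grey points for genes with none. All 13 genes at 100% are grey.

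Replacement and variant histone genes outside the clusters had ratios on either side of 0. Of 11 such genes, 9 had a value in both libraries, with a median centred ratio of -0.04, a range of -0.84 to 0.79 and none at 2-fold in either direction. The highest of them, Cenpa, the H3 variant of centromeres, scored 3.1 in control and 1.4 after IL-4 (centred -0.77, range -0.84 to -0.69). H2afj (0.79), H2afx (0.64) and H2afy (0.53), named after their values were seen, had centred ratios within the range of the clustered genes. The difference between these genes and the clustered ones was not tested.

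Of 23 genes for histone gene transcription, histone pre-mRNA processing and histone chaperoning, 14 had both values, with a median centred ratio of 0.12. The call rule was met by 1, Casp8ap2, a protein of histone locus bodies, which scored 0.1 in control and 0.3 after IL-4 (centred 1.96, range 1.12 to 3.19), and by 0 for lower values, beside the 8.06% and 8.62% of all genes. Npat (0.2) and the octamer factor Pou2f1 (0.6) had a transcript in control alone, and Slbp (0.4) after IL-4 alone. These 3 are named after their values were seen.

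The cells carried macrophage transcripts in both libraries. Of 9 macrophage marker names, 7 had a value in each, with sums of 19.0 in control and 17.8 after IL-4 and Cd68 highest at 5.8 and 7.3. The names Spi1 and Adgre1 were on no called transcript. Adgre1 is another symbol of Emr1, which was called and scored 1.6 and 1.4 (named after its values were seen). Neutrophil markers summed to 1.1 and 0.5 with 2 of 5 called in each library, not the same pair. S100a8 scored 0.5 and 0.3, Mpo 0.6 in control alone and S100a9 0.2 after IL-4 alone, all named after their values were seen. Ly6g and Elane had no call. Cd8a (0.6 and 0.8) was the one T cell marker called of 4, with no call at Cd3e, Cd3g or Cd4. The B cell marker Cd79a scored 0.4 in both libraries, and Cd79b and Ms4a1 had no call. No fibroblast or dendritic cell marker was called. Proliferating cells and more transcription per cell cannot be told apart in bulk nuclei, and the part of either in the histone ratios was not tested.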

How the data were processed

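Nascent RNA of BMDMs was measured by GRO-seq in 1 control and 1 IL-4 library, grouped by the treatment label. The authors aligned reads to mm10 with BWA, removed ENCODE blacklisted regions, called transcripts per library in the GRO-seq style of HOMER and annotated each with a nearest gene. The submitters' processing notes list BWA 0.7.10, SAMtools 0.1.19 and HOMER 4.2. The deposited score per transcript has 1 decimal. Its scaling is not stated, depth is unknown, and no interval that needs depth is given.

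Gene values were the highest score per gene name. Log2 ratios were centred on the median of genes with both values, with no pseudocount, and a call needed 2-fold. The ratio code was tested on simulated data. No statistical test was made. Positions, start codons, stem-loops and shared windows came from GENCODE M21, and promoters from RefSeq. For positions, transcripts carrying a clustered histone gene name were taken as at a gene by overlap on its strand. The stretch used reached from 100 bp before its start codon to 500 bp after its coding sequence. Python 3.11.15, pandas 2.3.3, numpy 2.4.6 and matplotlib 3.10.9 were used. Members, gene lists and settings were chosen with earlier results of these data known. Named genes were, per type, the 2 highest in each library, all past 2-fold and those in 1 library with a score of at least 0.3. From the other lists, genes past 2-fold or highest were named. Other genes are marked as chosen after their values were seen. One marker gene is not reported here.

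The alternatives were summed scores, scores weighted by length, same-strand overlap in place of names, no centring, and centring on the summed score times length without Rn45s. The others were a minimum of 0.3 in at least 1 library, and 0.1 in place of missing values.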

Additional observations from a re-analysis of the deposited data

How the results depend on the processing

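The median centred ratio of the members was 0.60. It was 0.29 with summed scores, 0.22 with no centring and 0.13 with centring on the total score, and 0.41 to 0.68 under the other settings. The count of members at least 2-fold higher was 4 (16%, against 8.06% of all genes). It was 2 with no centring (8% against 5.98%) and 1 with centring on the total (4% against 2.52%). With 0.1 in place of missing values it was 9 (28.1% against 13.1%). These include the 5 members named after IL-4 alone, at 0.2 to 0.4, which the filling by its construction puts past 2-fold. With summed scores and with scores weighted by length the count was 3 each (12%), below the 13.6% and 17.2% of all genes. It was 4 by same-strand overlap (17.4% against 8.27%) and 5 with the minimum of 0.3 in at least 1 library (21.7% against 12.1%). Under that minimum a gene can be kept for its higher library alone, as Hist1h3f was (0.2 and 0.5). The count at least 2-fold lower, 0, was 1 of 25 with summed scores (13.7% of all genes then) and 3 of 25 with scores weighted by length (16.9%). It was 2 of 25 with no centring (24.3%), 2 of 25 with centring on the total (24.6%) and 2 of 32 with filled missing values (12.3%). The 2 of 32 are the members named in control alone, at 0.8 and 0.3, which the filling itself puts past 2-fold. Centring by its construction shifts every ratio by the same amount. The cause of the other differences was not tested.

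By type, H1 moved from 0.47 to 0.00 with summed scores, 0.09 with no centring, 0.00 with centring on the total and 0.58 with filled missing values. H2A, at 0.14, was -0.24 with no centring, -0.34 with centring on the total and -0.07 with the minimum of 0.3. H2B, at 0.27, was -0.11 with weighting by length and with no centring, and -0.20 with centring on the total. H3, at 1.17, was 0.80 with weighting by length, 0.79 with no centring, 0.70 with centring on the total and 1.64 with filled missing values. H4, at 0.72, was 0.34 with no centring and 0.25 with centring on the total. The counts of genes with a transcript, 27 and 30, were 24 and 28 by same-strand overlap and 24 and 25 with scores of at least 0.3.

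No paired analysis was possible because each condition has 1 library, so leaving out a replicate was not run. Depth is unknown, so the precision of single scores beyond rounding cannot be given.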
